A study of Mus musculus with 6 samples.

Results

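The postsynaptic scaffold genes described here are 10 named genes: Dlgap1, Dlgap2, Dlgap3, Dlg1, Dlg2, Dlg4, Shank1, Shank2, Shank3 and Homer1. All 10 are in the SCRB-seq table of 19006 mouse genes, the bulk SMART-Seq2 table of 21987, the plate tables of 23295 and 21608 and the droplet table of 19905.

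Nuclei came from 50 µm scrolls of formalin-fixed, paraffin-embedded (FFPE) brain of C57BL/6J mice aged 8 to 12 weeks, labelled cortex. The labels give no genotype change, drug or animal per well. Paraffin was removed by one of 3 treatments: mineral oil with heat, xylene with heat (heated xylene), or xylene without heating, at room temperature (RT xylene). Nuclei were sorted after rehydration. SCRB-seq, a method that counts 3' tags, was run on 16 wells per method and 16 wells of frozen nuclei, with 8 wells of 10 and 8 of 100 nuclei in each. SMART-Seq2, a full-length method, was run on 3 wells per method and 3 frozen wells, holding 10, 50 and 100 nuclei. Single nuclei were profiled by SMART-Seq2 on plates (143 FFPE, 137 frozen and a separate batch 1 of 98 FFPE nuclei) and in droplets (7031 FFPE nuclei in the authors' 12 classes). Frozen material is named only in the annotation tables, which also give the FFPE plates as left and the frozen plates as right brain. No well or nucleus is tied to an animal, so p-values measure the spread between wells, which may be technical.

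At an excitatory synapse, the proteins of these genes form layers under the membrane. Dlg proteins (Dlg4 encodes PSD-95) hold glutamate receptors and adhesion molecules through PDZ domains. Dlgap proteins bind the Dlg layer and link it to Shank proteins, and Homer1 binds Shank and group I metabotropic glutamate receptors. Nuclear RNA is rich in unspliced transcripts, and several of these genes are very long.

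On GRCm38 with the GENCODE M21 annotation, Dlg2 spans 1973 kb on chromosome 7, Dlgap1 852 kb on chromosome 17, Dlgap2 752 kb on chromosome 8 and Shank2 423 kb on chromosome 7. Dlg1 (chromosome 16) spans 212 kb and Homer1 (chromosome 13) 105 kb. The others are shorter: Dlgap3 (chromosome 4) 67.8 kb, Shank3 (chromosome 15) 60.6 kb, Shank1 (chromosome 7) 50.3 kb and Dlg4 (chromosome 11) 30.6 kb. All 10 are longer than the median of 17.4 kb over 21951 coding genes. In Dlg2, 30 annotated genes overlap the gene, 22 of them on its own strand. Dlgap1 is overlapped by 2 genes on the opposite strand. Reads from overlapping genes could not be told apart here, because the strand setting of the counting is not given in the sources used.

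Reverse transcription from an oligo-dT primer can start at a run of A inside a transcript, so the longest run of A in any annotated transcript of each gene was found. The last bases of each transcript were left out of the search. Runs in introns were not searched, although introns make up 97.9% of Dlgap1. The 3 members with a run over 11 bases are shown, each as 30 transcript bases, 5′ to 3′, with the run in capitals. All 3 lie in a 3' UTR, in the last exon of the named transcript.
Dlg4 (Dlg4-214, chr11:70032743-70032772, + strand): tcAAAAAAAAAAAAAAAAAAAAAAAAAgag
Homer1 (Homer1-202, chr13:93404130-93404159, + strand): tccAAAAAAAAAAAAAAAAAAAAAAAcagt
Dlgap1 (Dlgap1-207, chr17:70819718-70819747, + strand): tcataggAAAAAAAAAAAAAAAAcgaaaga
The runs hold 25, 23 and 16 A. A run at least as long occurs in 0.897%, 1.28% and 4.19% of coding genes, and the median coding gene has 6. In FFPE SCRB-seq wells Dlgap1 had 10018.5 CPM (a gene's counts scaled by its library total), against 90.0 for Dlg4 and 100.4 for Homer1. Levels of different genes cannot show whether priming took place at a run, and its part in these counts was not tested.

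Dlgap1 was among the genes with the most counts in SCRB-seq and in the droplets. Summed over all FFPE SCRB-seq wells it ranked 4 of 19006 genes, and in the droplets it ranked 3 of 19905 with 6176 CPM of unique molecular identifiers (UMIs), here UMI CPM. In frozen SCRB-seq wells it ranked 13, with 3081 CPM. In bulk SMART-Seq2 it ranked 24 of 21987 in FFPE wells (2537 CPM) and 44 in frozen wells (2069 CPM). Per kb of gene, the level of Dlgap1 in SCRB-seq was 11.8 CPM per kb in FFPE and 3.61 in frozen wells, and in bulk SMART-Seq2 2.98 and 2.43. On that per-length scale Dlgap1 was the highest of the 10 in FFPE SCRB-seq wells and in the droplets (7.25 UMI CPM per kb). In frozen SCRB-seq wells Shank1 was the highest (6.70 CPM per kb), followed by Dlg4 (4.82).

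In FFPE against frozen SCRB-seq wells, Dlgap1 was higher and 6 other members were lower. Counts per well ranged from 7512 to 167144. Dlgap1 ranged from 6851 to 28729.6 CPM in mineral oil wells (median 12750.3), from 5778 to 14997 in heated xylene (median 10004), from 5125 to 23261 in RT xylene (median 9974) and from 2169 to 3726 in frozen wells (median 2999.85). Every FFPE well lay above every frozen well. Among 7309 genes with at least 100 counts, 0.26% showed such a complete separation upwards. The log2 fold change of Dlgap1, FFPE minus frozen, was 1.99 (SE 0.22, edgeR quasi-likelihood test, Benjamini-Hochberg adjusted p = 2.22e-12). The 8 wells of each method and nuclei number, frozen included, are a library pool of their own. FFPE and frozen therefore cannot be told apart from pool, and p-values of this contrast do not measure the spread between pools.

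Dlgap2, a paralogue of Dlgap1 with the same place in the scaffold, lay at the other end. It ranged from 0 to 244 CPM in mineral oil (median 61.6), from 28.2 to 583 in heated xylene (median 166), from 0 to 647 in RT xylene (median 183) and from 905 to 2693 in frozen wells (median 1381). Every FFPE well lay below every frozen well, a separation seen in 0.383% of the 7309 genes. The log2 fold change was -3.15 (SE 0.28, edgeR adjusted p = 1.50e-16).

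**Figure D1:**
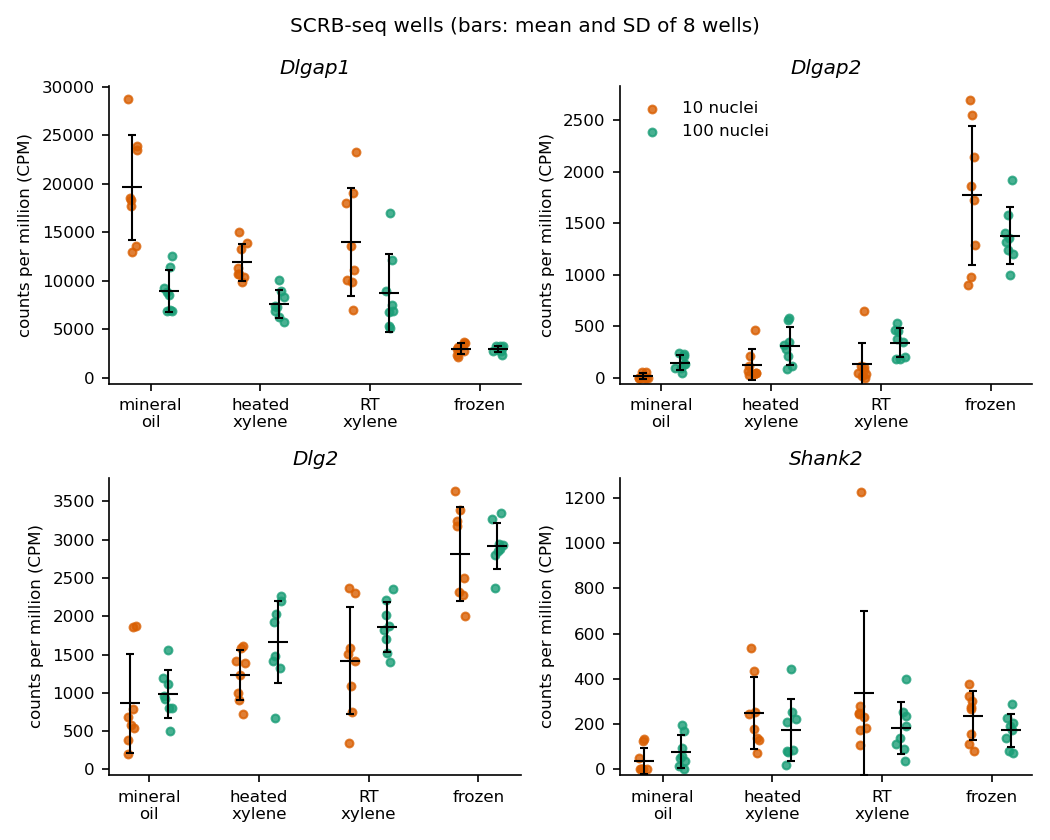
CPM of Dlgap1, Dlgap2, Dlg2 and Shank2 in each SCRB-seq well, by method (RT, room temperature), with wells of 10 nuclei in orange and of 100 in green; each panel has its own linear axis, and bars give the mean and SD of 8 wells. Frozen wells sit lowest for Dlgap1 (at most 3726 CPM) and highest for Dlgap2 (at least 905 CPM).

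Over all genes tested in this contrast, 58% of 1478 were called at an adjusted p under 0.05, 30.2% higher and 27.7% lower. Of the 10 members, 9 passed the filter on low counts, of which 1 was higher and 6 were lower. Their median log2 fold change was -1.18, against 0.00 over all genes tested. A share of 7 in 9 members called is therefore to be read against a background where more genes were called than not.

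Dlg2, a membrane-associated guanylate kinase like Dlg4, had medians of 801 CPM in mineral oil, 1415 in heated xylene, 1646 in RT xylene and 2907 in frozen wells. FFPE wells reached from 199.5 to 2374 CPM and frozen wells from 2001 to 3640. The groups overlapped, with 40 of 48 FFPE wells below all frozen wells. Its log2 fold change was -1.18 (SE 0.16, edgeR adjusted p = 2.84e-09).

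Homer1 had a median of 56.1 CPM in FFPE (0 to 1117) and 304 in frozen wells (79.7 to 567.8). Its log2 fold change was -1.63 (SE 0.38, edgeR adjusted p = 1.43e-04). Dlgap3 had a median of 49.1 CPM in FFPE (0 to 411) and 268 in frozen wells (79.8 to 476). Its log2 fold change was -1.90 (SE 0.35, edgeR adjusted p = 2.78e-06). The groups overlapped for both genes, with 29 of 48 FFPE wells for Homer1 and 32 of 48 for Dlgap3 under every frozen well.

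Shank1 (log2 fold change -1.56, SE 0.40, edgeR adjusted p = 5.06e-04) and Dlg1 (-0.86, SE 0.33, edgeR adjusted p = 0.0222) were also lower. Neither call held in the wells of 100 nuclei alone, where the values were -0.77 (edgeR adjusted p = 0.121) and -0.58 (0.141). The Dlg1 call was also lost with DESeq2 size factors (edgeR adjusted p = 0.0565) and without a filter on low counts (0.0948). Shank2 (-0.33, edgeR adjusted p = 0.394) and Shank3 (-0.56, 0.211) did not pass the test, and Dlg4 had too few counts to be tested. With size factors from genes counted in every well, the median over all genes tested moved to -0.59. The genes called then split into 307 higher and 678 lower, against 447 and 410. In that scaling Dlgap1 was still higher (1.28), and Shank2 (-1.03) and Shank3 (-1.14) were called lower as well.

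Of 20 other genes of the excitatory postsynaptic density, 11 were tested in the same contrast, 8 were lower and 0 were higher. Their median log2 fold change was -0.84. The 8 were Baiap2 (-1.53), Dlgap4 (-1.50), Cnksr2 (-1.42), Tanc2 (-1.28), Magi1 (-1.08), Sipa1l1 (-0.84), Magi2 (-0.77) and Lrrc7 (-0.58). Gphn, which encodes gephyrin, the scaffold of inhibitory synapses, was higher (0.69, edgeR adjusted p = 0.0109). It was the single gene tested from the inhibitory list of 6.

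Levels of cell type markers differed between FFPE and frozen wells. In SCRB-seq, all 7 cerebellar granule neuron markers had counts in FFPE wells, with a summed level of 307 to 6268 CPM. In frozen wells 5 of 7 had counts (0 to 292 CPM), and the defining markers Gabra6 and Cbln3 were at 0. All 5 glutamatergic markers had counts in both, at 95.8 to 866 CPM in FFPE and 1248 to 2334 CPM in frozen wells. The 4 pan-neuronal markers summed to 863 to 10167 CPM in FFPE and 13514 to 18906 CPM in frozen wells. The 5 oligodendrocyte markers summed to 0 to 12470.1 CPM in FFPE (median 1252) and 97.0 to 797 CPM in frozen wells (median 369). The 5 astrocyte markers summed to 209 to 5751 CPM (median 915) and 186 to 846 CPM (median 456). Pooled levels of the glial and other lists are given with the processing. The part of all these lists in the member results was not tested. In bulk wells, fewer cells of a type and less RNA per cell cannot be told apart.

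In bulk SMART-Seq2, 3 members were lower in FFPE and Dlgap1 did not differ beyond the spread between wells. The call rate over all genes was 4.09% of 9092, with 1.45% higher and 2.64% lower. All 10 members were tested, 3 were lower and 0 higher, with a median log2 fold change of -0.52 against -0.13 over all genes. Scaled by well totals alone, the calls over all genes were 167 higher and 164 lower, against 132 and 240. The DESeq2 Wald test called 393 higher and 238 lower, so the split between directions turned with the tool.

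Dlgap2 had 28.4, 102 and 367 CPM in the 3 mineral oil wells, 279, 495.5 and 941 in heated xylene, 479, 646 and 1216 in RT xylene, and 1815, 2197 and 2925 in frozen wells. All 9 FFPE wells lay below the 3 frozen wells, as did 4.75% of 8672 genes with at least 100 counts, while 3.89% lay wholly above. The log2 fold change was -2.67 (SE 0.47, edgeR adjusted p = 9.74e-04).

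Shank2 had 11.7, 18.9 and 25.6 CPM in mineral oil wells, 89.3, 100.7 and 227 in heated xylene, 59.1, 72.3 and 148 in RT xylene, and 392, 409 and 668 in frozen wells. Again no FFPE well reached a frozen well. Its log2 fold change was -3.22 (SE 0.50, edgeR adjusted p = 2.55e-04), while the SCRB-seq value was -0.33. The difference between the assays was not tested.

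Dlg2 had 1363, 1478 and 2745 CPM in mineral oil wells, 1924, 2955 and 6473 in heated xylene, 2227, 3279 and 3829.9 in RT xylene, and 5359, 5648 and 6191 in frozen wells. 1 heated xylene well, of 10 nuclei, lay above all frozen wells. The log2 fold change was -1.26 (SE 0.30, edgeR adjusted p = 0.0140). That call was lost without any 1 of the 3 frozen wells, with DESeq2 size factors (edgeR adjusted p = 0.05795) and with the DESeq2 Wald test (adjusted p = 0.185).

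Dlgap1 ranged from 1698 to 3562 CPM over the 9 FFPE wells and from 1776 to 2397 over the frozen wells. The ranges overlapped, with 7 of 9 FFPE wells above all 3 frozen wells: the 3 mineral oil wells (2489, 2493 and 3562 CPM) and the xylene wells of 50 and 100 nuclei (2618 to 3155 CPM). The log2 fold change was 0.05 (SE 0.25, edgeR adjusted p = 0.965). The remaining 6 members had log2 fold changes from -0.82 (Shank1) to -0.14 (Shank3), none of them called. Of 18 other postsynaptic density genes tested, Kalrn (-3.42), a guanine nucleotide exchange factor of dendritic spines, and Baiap2 (-2.73) were lower. Of 3 inhibitory scaffold genes tested, 0 were called.

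The same markers differed here. All 7 granule markers had counts in FFPE wells, at a summed 1320.3 to 3886 CPM. In frozen wells 3 of 7 did (59.2 to 199.7 CPM), with Gabra6, Cbln1, Cbln3 and Zic1 at 0. The 5 glutamatergic markers summed to 60.5 to 359.5 CPM in FFPE and 1287 to 1757 CPM in frozen wells. The 5 oligodendrocyte markers summed to 745 to 2505 CPM in FFPE and 67.3 to 343 CPM in frozen wells, and the 4 pan-neuronal markers to 8805 to 10940.8 CPM and 12535 to 17040.2 CPM. All markers of both lists had counts in both groups, and neither list overlapped between the groups. Their part in the values of Dlgap2, Dlg2 and Shank2 was not tested.

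**Figure D2:**
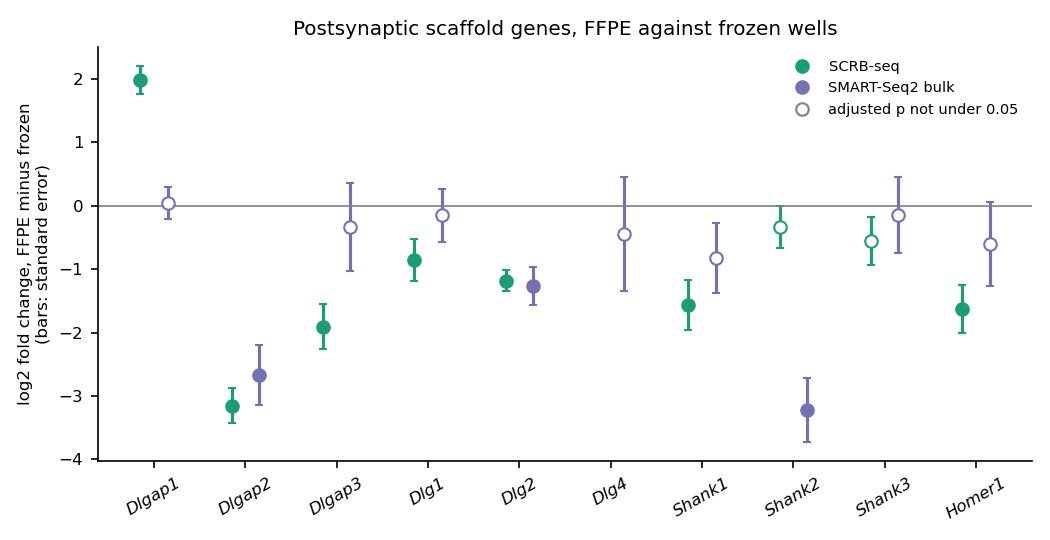
Log2 fold change of each member, FFPE minus frozen, in SCRB-seq (green) and bulk SMART-Seq2 (purple), with standard errors; open circles did not pass an adjusted p of 0.05, and Dlg4 was not tested in SCRB-seq. Dlgap1 is the one member above 1 in SCRB-seq (1.99) and lies at 0.05 in SMART-Seq2, and Dlgap2 is below -2 in both.

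Among the FFPE methods, mineral oil wells held less Dlg2 and Shank2 than xylene wells in SCRB-seq, in the fit to all FFPE wells. In wells of 10 nuclei alone, and after thinning to 20000 counts, 2 members were tested and 0 were called against either xylene. Of the 10 members, 5 passed the filter on low counts (Dlgap1, Dlgap2, Dlg1, Dlg2 and Shank2). Against heated xylene, where 8.52% of 1080 genes were called (1.57% higher, 6.94% lower), Dlg2 was lower by a log2 fold change of -0.74 (SE 0.23, edgeR adjusted p = 0.0356) and Shank2 by -1.70 (SE 0.47, edgeR adjusted p = 0.0131). The Dlg2 call was lost with DESeq2 size factors (edgeR adjusted p = 0.0696) and with factors from genes counted in every well (0.0592). In wells of 100 nuclei the calls over all genes were 119 higher and 137 lower, against 17 and 75. Against RT xylene (10.3% called, 2.5% higher and 7.78% lower), Dlg2 was lower at -0.96 (edgeR adjusted p = 0.00477) and Shank2 at -2.11 (0.00237). The median of the 5 was -0.74 and -0.96, against -0.15 and -0.13 over all genes tested. Heated and RT xylene wells differed in 0 of 5 members and 1.94% of genes (1.02% higher, 0.926% lower). None of the 5 had an unadjusted p under 0.05 there, and DESeq2 also called 0. With factors from genes counted in every well the genes called were 13 higher and 89 lower between oil and RT xylene, against 27 and 84. Between the xylenes they were 4 and 10, against 11 and 10, and 17 and 10 with DESeq2 size factors.

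Shank2 had counts in 10 of 16 mineral oil wells, with a median of 42.6 CPM and a highest well of 198. It had counts in all 16 wells of heated xylene (median 194) and of RT xylene (median 213). Within the wells of 100 nuclei the Shank2 differences were -1.08 (edgeR adjusted p = 0.225) and -1.10 (0.230), not called, while Dlg2 was called in both. The 8 wells of 1 method and 1 nuclei number are 1 library pool, so method and pool cannot be told apart. Mineral oil wells of 10 nuclei were also the shallowest, at 7512 to 20593 counts.

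Markers of cell types differed between the methods as well. The 5 oligodendrocyte markers all had counts in each method. They summed to 0 to 1803 CPM in mineral oil wells (median 233), 828.9 to 5079 in heated xylene (median 2055) and 409 to 12470.1 in RT xylene (median 1866). Of 5 GABAergic markers, 3 had counts in mineral oil, where Gad2 and Slc32a1 were at 0, and 5 in each xylene. That list summed to 0 to 2680.2 CPM in mineral oil (median 322), 311 to 2031 in heated xylene (median 1081) and 211 to 1758 in RT xylene (median 726). All 7 granule markers had counts in each method, at 374 to 6268 CPM, 828.9 to 2628 and 307 to 1892 in the same order. The medians of that sum were 1986, 1482 and 1199 CPM. The 4 pan-neuronal markers all had counts in each method and summed to 863 to 10110.8 CPM in mineral oil (median 5333), 4568 to 9932 in heated xylene (median 8216) and 4072 to 10167 in RT xylene (median 7561). Of 5 glutamatergic markers, 4 had counts in mineral oil and in RT xylene, where Neurod6 was at 0, and 5 in heated xylene. That list summed to 95.8 to 633 CPM in mineral oil (median 283), 205 to 866 in heated xylene (median 323) and 130.4 to 831 in RT xylene (median 458). The ranges of all 5 lists overlapped between the methods, and their part in the values of Dlg2 and Shank2 was not tested.

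Dlgap2 had values on the same side in mineral oil, -1.15 against heated xylene (edgeR adjusted p = 0.120) and -1.23 against RT xylene (0.0839). With the number of nuclei as a covariate it was called in both, at -1.43 (edgeR adjusted p = 0.0242) and -1.52 (0.0131). In wells of 100 nuclei alone it was called in neither, and the mineral oil wells of 10 nuclei held 2 Dlgap2 counts in all. Of 8 other postsynaptic density genes tested, 0 were called in any pair of methods. Gphn was lower in mineral oil than in RT xylene (-1.08, edgeR adjusted p = 0.0156).

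Bulk SMART-Seq2 called 0 of 8372 genes between any 2 methods (a called share of 0%), and so 0 of 10 members. With an unadjusted p under 0.05 there were 3 members between oil and heated xylene, 2 between oil and RT xylene and 0 between the xylenes, beside 314, 379 and 199 of the 8372 genes. DESeq2 called 11, 18 and 1 genes in that order, none of them a member. Shank2 was -2.91 (SE 1.22, edgeR adjusted p = 0.9997) against heated xylene. As listed above, its 3 mineral oil wells lay below all 6 xylene wells, which held for 1.73% of 7801 genes with at least 100 counts, while 1.49% lay wholly above. The 5 glutamatergic markers summed to 60.5 to 277 CPM in these mineral oil wells, 212 to 359.5 in heated xylene and 205 to 344 in RT xylene. Neurod6 was at 0 in mineral oil and RT xylene. In the same order, the 4 pan-neuronal markers summed to 9252 to 10940.8, 8805 to 10237 and 9258 to 10304 CPM. The 7 granule markers summed to 1897 to 3886, 1320.3 to 1901 and 1516 to 3719 CPM. The part of these 3 lists in the Shank2 values was not tested.

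**Figure D3:**
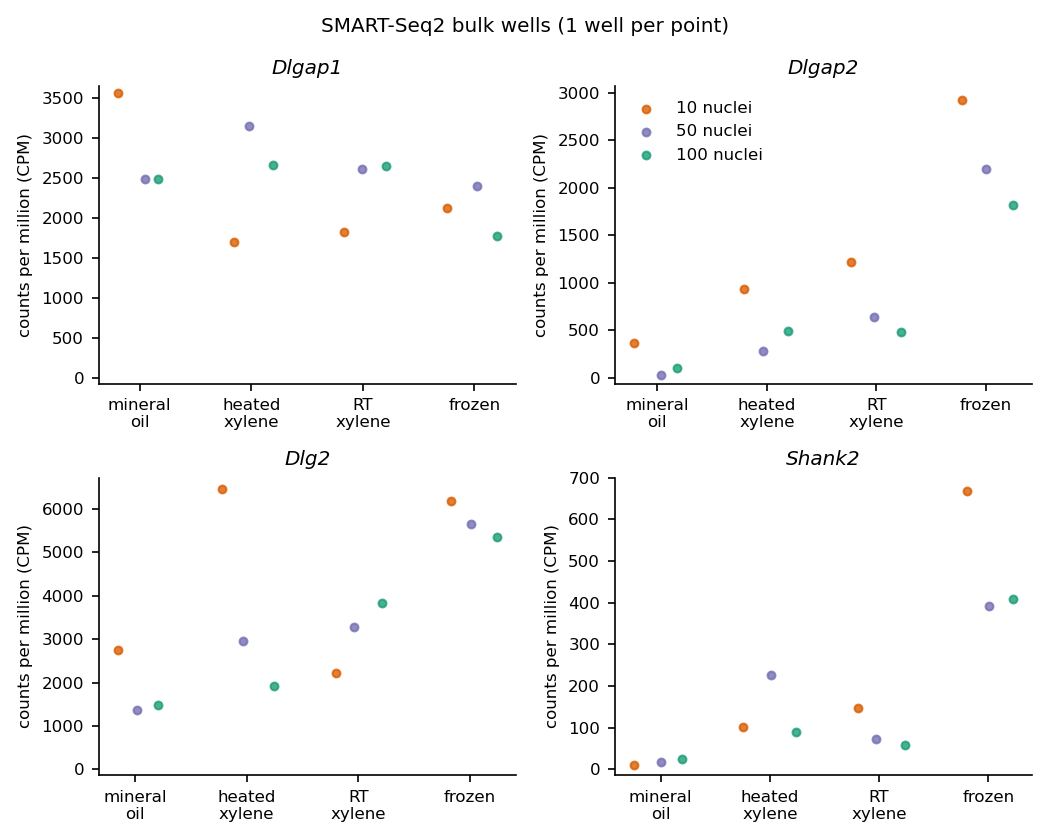
CPM of Dlgap1, Dlgap2, Dlg2 and Shank2 in each of the 12 bulk SMART-Seq2 wells by method (RT, room temperature), coloured by nuclei number (10 orange, 50 purple, 100 green), on a linear axis per panel. Mineral oil wells are at most 25.6 CPM for Shank2 and frozen wells at least 392 CPM, while Dlgap1 overlaps between the FFPE methods.

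The level of Dlgap1 in SCRB-seq also moved with the number of nuclei. In mineral oil, wells of 10 nuclei averaged 19636 ± 5399 CPM and wells of 100 nuclei 8929.8 ± 2150.3 (SD, n = 8 each). Every well of 10 lay above every well of 100, as for 1.49% of 1273 genes with at least 100 counts in those wells (20.7% lay wholly below). In heated xylene the means were 11905 ± 1884 and 7633 ± 1428, and in RT xylene 14004 ± 5573 and 8731 ± 4033. In frozen wells they were 3017 ± 556 and 2981 ± 334. The ranges overlapped in these 3 groups. Complete separation upwards held for 1.76%, 0.359% and 0.0982% of genes there, and downwards for 4.63%, 2.23% and 0.147%. No test was made, since each set of 8 is 1 pool.

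Dlgap2 moved the other way in mineral oil: 2 of 8 wells of 10 nuclei held any count, 1 count each (60.9 and 62.4 CPM), while all 8 wells of 100 nuclei did (48.5 to 244 CPM). These ranges overlapped. Dlg1 in RT xylene had 0 to 109.5 CPM in wells of 10 and 132 to 436 in wells of 100 nuclei, with no overlap. That held for 2.23% of 2509 genes.

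On plates, the summed levels of Dlgap2, Shank1 and Shank2 were lower in FFPE than in frozen nuclei. For Shank2 each FFPE plate lay below both frozen plates, while 1 batch 1 FFPE plate reached the frozen plates for Dlgap2 and exceeded them for Shank1. With 1 sample per group there is no test. Intervals are exact Poisson or exact binomial 95% intervals, which cover counting error only, and plate reads without UMIs are not independent molecules. Median counts per nucleus were 47887 in FFPE, 180584 in batch 1 FFPE and 255329 in frozen nuclei.

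Dlgap2 had 185 CPM in the summed FFPE nuclei (interval 179.9 to 191), 853 in batch 1 (839 to 866) and 1537 in frozen nuclei (1527 to 1546). Frozen was 8.29-fold above FFPE, and 47.1% of the FFPE counts came from 1 nucleus. By plate, the 2 FFPE plates had 141 and 198.9 CPM, the batch 1 plates 739 and 1478, and the frozen plates 1439.9 and 1629. The higher batch 1 plate lay between the frozen plates, with 74.3% of its Dlgap2 counts from 1 nucleus. After each nucleus was thinned to 10000 counts, 20.7% of FFPE nuclei (14.2% to 28.6%), 26.7% of batch 1 nuclei (17.9% to 37.0%) and 81.9% of frozen nuclei (74.1% to 88.2%) had a Dlgap2 count. Thinning left out 8, 8 and 10 nuclei. Before thinning the shares were 35.0%, 43.9% and 91.2%.

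Shank1, a scaffold of the deepest layer of the postsynaptic density, had 299.7 CPM in FFPE, 323 in batch 1 and 895 in frozen nuclei. Its batch 1 plates were far apart, at 1524 and 105 CPM, and 43.2% of its batch 1 counts came from 1 nucleus. The frozen plates had 923 and 869 CPM, so 1 FFPE plate lay above both. Thinned shares with a count were 37.8%, 30% and 77.2%.

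Dlgap1 had a summed level of 1375 CPM in FFPE, 1970.4 in batch 1 and 1457 in frozen nuclei. Of its FFPE counts, 26.2% came from 1 nucleus, and without the 9 FFPE nuclei that are in no batch table its level was 1061 CPM. With nuclei weighted equally the means were 1051, 1789 and 1794 CPM, and the median nucleus had 435, 835 and 1127 CPM. It was counted in 77.0% of thinned FFPE nuclei, 71.1% of batch 1 and 92.1% of frozen nuclei. Its summed level in batch 1 was above the frozen level, and in the other FFPE nuclei below it.

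Dlg2 had 1008 CPM in FFPE, 1904 in batch 1 and 1876 in frozen nuclei, so the FFPE batches lay on both sides of the frozen value. The summed level hid large differences between nuclei. The median nucleus had 168 CPM in FFPE, 544 in batch 1 and 1045 in frozen nuclei. The highest nucleus had 11263 CPM in FFPE, 526438 in batch 1 and 401239 in frozen nuclei. With nuclei weighted equally the means were therefore 635, 6922 and 9298 CPM. Of its FFPE counts, 39.5% came from 1 nucleus. Without the 9 FFPE nuclei that are in no batch table, its level was 617 CPM. Dlg4 was higher in FFPE (290.4 CPM) than in frozen nuclei (138), but 51.7% of its FFPE counts came from 1 nucleus, batch 1 had 78.1 CPM, and fewer thinned FFPE nuclei had a count (11.9% against 39.4%).

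Shank2 had 145 CPM in FFPE, 143 in batch 1 and 309 in frozen nuclei. Its 2 FFPE plates had 217 and 123 CPM, the batch 1 plates 45.0 and 161, and the frozen plates 222 and 392. From 1 nucleus came 78.5% of the counts on the highest of these FFPE plates, which lay just under the lower frozen plate.

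Dlgap3 had 119 CPM in FFPE, 176 in batch 1 and 345 in frozen nuclei. Homer1 had 18.9, 49.2 and 43.7 CPM, so its level was below the frozen one in the FFPE nuclei and above it in batch 1. Of the Homer1 counts in FFPE, 73.6% came from 1 nucleus. Without the 9 nuclei in no batch table the FFPE level of Homer1 was 4.85 CPM, which put frozen 9.01-fold above it in place of 2.31-fold. The FFPE level of Dlgap3 was then 208 CPM, with frozen 1.66-fold above in place of 2.89-fold. Dlg1 had 121 CPM in FFPE, 369.7 in batch 1 and 131 in frozen nuclei, and 48.1% of its FFPE counts came from 1 nucleus. Shank3 had 133, 129 and 141 CPM. Without the 9 nuclei its FFPE level was 217.5 CPM, and with nuclei weighted equally it was 212 CPM in FFPE and 149 in frozen nuclei. For Dlg1 and Shank3 the direction therefore depended on the nuclei or the summary used.

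In all, 9 of 10 members had a lower summed CPM in FFPE than in frozen nuclei, with Dlg4 the exception, and 6 of 10 with batch 1 in place of these nuclei. Over all genes with at least 1000 counts, 59.1% of 9517 and 61.8% of 9041 were lower. All 10 members had a smaller thinned share of nuclei with a count in FFPE and in batch 1, as did 86.5% and 88.3% of those genes, so a lower share was the rule over the whole table. Markers differed here too. All 7 granule markers had counts in each group, summing to 1094 CPM in FFPE, 1623 in batch 1 and 133 in frozen nuclei. Glutamatergic markers summed to 571, 438 and 2261 CPM, with Neurod6 at 0 in batch 1. Their part in the member values was not tested.

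**Figure D4:**
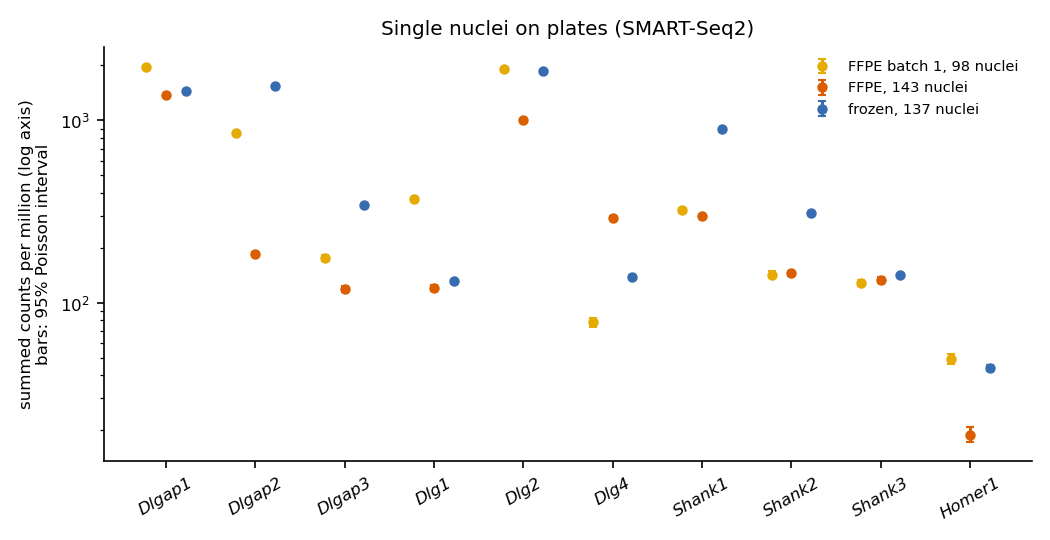
Summed CPM on a log axis for each member in batch 1 FFPE nuclei (yellow), FFPE nuclei (orange) and frozen nuclei (blue), with 95% Poisson intervals, most of them smaller than the symbol. Dlgap2 is at 185, 853 and 1537 CPM in FFPE, batch 1 and frozen nuclei, and Dlgap1 lies within 1375 to 1970.4 CPM in all 3.

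In the droplets, Dlg2 and Dlgap2 differed between classes of nuclei while Dlgap1 was nearly flat. The data are 1 library, so nuclei are not replicates and no test was made. Nuclei held a median of 325 UMIs, and 0 barcodes were repeated. The authors' class names were checked against markers: the astrocyte, endothelial, microglia, oligodendrocyte and OPC (oligodendrocyte precursor) lists were each highest in the class of that name. The glutamatergic list was highest in ExNeuron1 (3137 UMI CPM), followed by microglia (2936). ExNeuron4 went against its name, with 3303 UMI CPM of GABAergic and 1713 of glutamatergic markers. Granule markers were highest in ExNeuron3 (2519.6 UMI CPM).

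Dlgap1 had 6219.96 UMI CPM in the 6 ExNeuron classes together and 6001 in the 6 other classes, a ratio of 1.04 (exact interval 0.997 to 1.08). Its class levels ran from 4744 in fibroblasts (3834 to 5806) to 6895 in microglia (5977 to 7914). The intervals of neighbouring classes in this order overlapped throughout. A Dlgap1 UMI was found in 88.7% of ExNeuron nuclei and 87.2% of the others, at median depths of 325 and 326 UMIs, and in 78.9% and 77.8% after thinning to 250 UMIs. Microglia, which form no postsynaptic density, had 84.7% after thinning. The share in ExNeuron classes is therefore not read as expression particular to neurons, and the source of these UMIs was not tested.

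Its coefficient of variation over the 12 classes was 8.82%, against a median of 28.6% over 898 genes with at least 500 UMIs. Of those 898, 12 varied as little, itself included. Of the 39 genes with at least 5000 UMIs, nearer to its depth, 11 did, and their median was 23.4%. Among the 15 genes with the most UMIs, Gm42418 (7.83%), mt-Co2 (7.03%), mt-Co3 (7.26%) and mt-Atp6 (7.53%) varied less. The 3 genes with the most similar class pattern, by Pearson r of log2 UMI CPM, with 10 added before the log, over 12 classes, were Maml3 (0.91), Fgf12 (0.90) and Tatdn1 (0.88).

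Dlg2 had 2357 UMI CPM in ExNeuron classes and 1459 in the others, a ratio of 1.62 (exact interval 1.497 to 1.75). It was highest in ExNeuron6 (3298, interval 2915 to 3718), followed by ExNeuron1 (2833), ExNeuron5 (2475) and ExNeuron4 (2437). ExNeuron5 and ExNeuron4 lay within each other's intervals. ExNeuron2 (1825) and ExNeuron3 (1519) were close to OPC (1920.2), oligodendrocytes (1545) and endothelial nuclei (1519.5). After thinning, 37.6% of ExNeuron nuclei and 27.9% of the others had a Dlg2 UMI, and before thinning 47.5% and 35.7%. Genes most similar over the classes were Cadps (0.92), Dpp10 (0.89) and Erc2 (0.87).

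Dlgap2 showed the widest ratio, 437 UMI CPM in ExNeuron classes against 188.5 in the others, or 2.32-fold (1.88 to 2.88). ExNeuron6 (751, interval 574 to 964), ExNeuron4 (638), ExNeuron5 (532) and ExNeuron1 (517) were high. ExNeuron2 (197) and ExNeuron3 (223) lay with astrocytes (188), OPC (183) and oligodendrocytes (166), while microglia had 375 (11 UMIs, interval 187 to 672). Its most similar genes were Kcnh7 (0.87), Cadps (0.85) and Grm5 (0.83), the last a metabotropic glutamate receptor. The ExNeuron classes with low Dlg2 were thus those with low Dlgap2. These correlations rest on 12 classes of 1 library and are a description.

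Dlg1, known from epithelial cells as well as neurons, had its highest level in oligodendrocytes (459.7 UMI CPM, interval 341 to 606) and its ExNeuron level was 290.4 against 319.9 in the others, a ratio of 0.91 (0.76 to 1.08). Pak7 (0.95), Zcchc7 (0.93) and Syt7 (0.91) were most similar. The other 6 members had 302 to 388 UMIs in all. Homer1 (1.60, 1.19 to 2.17), Shank1 (1.49, 1.10 to 2.06), Shank3 (1.40, 1.02 to 1.97), Dlg4 (1.40, 1.02 to 1.95) and Dlgap3 (1.38, 1.04 to 1.85) had ExNeuron to other ratios whose intervals lay above 1. Shank2 did not (1.08, 0.81 to 1.46). Over all 1713 genes with at least 300 UMIs, 26.7% had an interval above 1 and 14% one below, against 7 and 0 of the 10 members with Dlg2 and Dlgap2 counted in. By single class, Homer1 was highest in endothelial nuclei (212 UMI CPM, interval 109.6 to 370.4) and at most 204 in an ExNeuron class. Shank1 was highest in microglia (273, interval 118 to 538) and at most 165 in an ExNeuron class. Shank3 had a UMI in 0.971% to 4.71% of a class's nuclei after thinning.

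**Figure D5:**
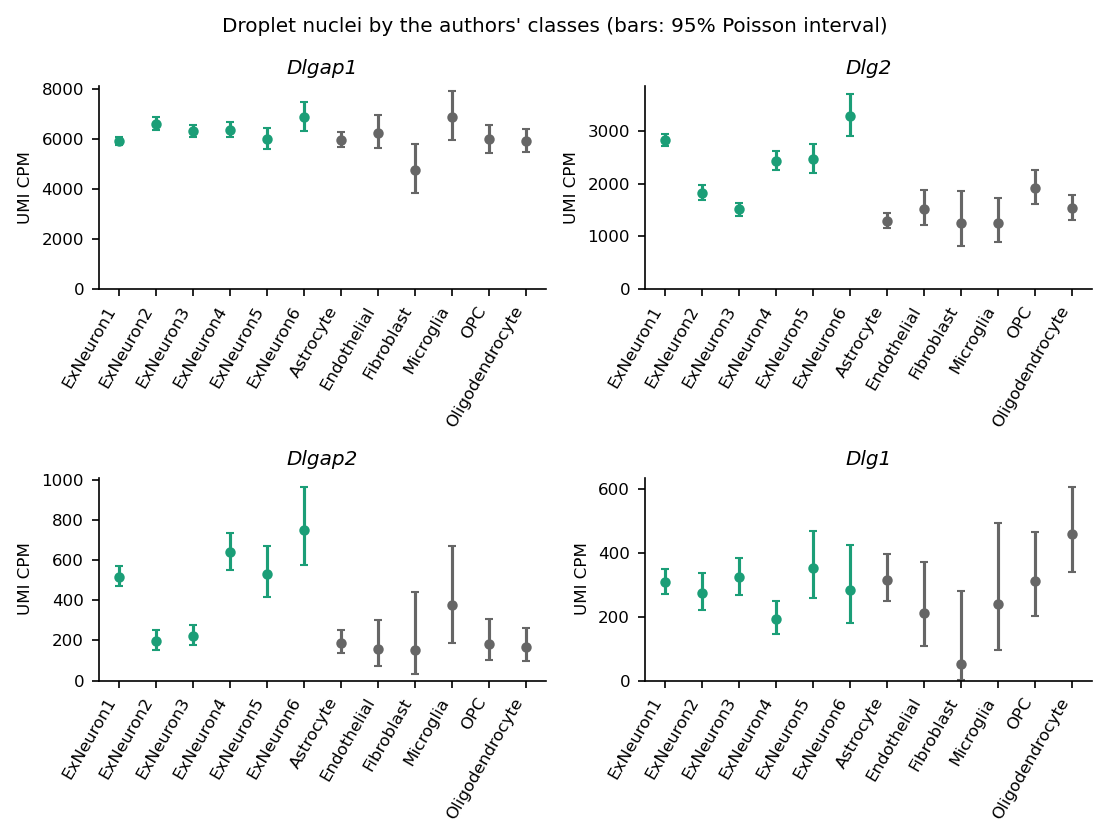
UMI CPM of Dlgap1, Dlg2, Dlgap2 and Dlg1 in the authors' 12 droplet classes, ExNeuron classes in green and the others in grey, with 95% Poisson intervals and a linear axis from 0. Dlgap1 lies between 4744 and 6895 in every class, while Dlgap2 runs from 151 in fibroblasts to 751 in ExNeuron6.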

How the data were processed

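The deposited tables give unnormalised counts, one value for each gene in each well or nucleus (UMI counts in droplets), and the deposited annotation tables gave method, nuclei number, plate and class. Per the submitters' processing notes the builds were hg19 and mm10. The sources used here do not give the counting software. From the SCRB-seq table, 10653 human genes were dropped. The batch 3 plate table holds 0 nuclei. Of the FFPE nuclei, 134 equal batch 2 and 9 are in no batch table. The 137 frozen nuclei carry no sample label.

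Wells were compared with edgeR 4.0.16 (R 4.3.3), by its quasi-likelihood test after filterByExpr and TMM scaling, with Benjamini-Hochberg adjustment over all genes tested and calls under 0.05. Method pairs came from one fit to the FFPE wells, and FFPE (the mean of the methods) against frozen from a fit that added the frozen wells, each assay separately and without covariates. The fit was tested on simulated data. DESeq2 1.42.0 was an alternative. CPM, intervals and thinning used Python 3.11, numpy 2.4.6, pandas 2.3.3 and scipy 1.17.1, with figures from matplotlib 3.10.9. Nuclei were thinned to 10000 counts on plates and 250 UMIs in droplets, with no doublet step. Gene positions and A runs came from GENCODE M21 on GRCm38. All 10 members are named. The 20 postsynaptic density and 6 inhibitory genes are given as counts with values for those called, and similar genes as the top 3 by Pearson r. Members and lists were chosen with earlier results of these data known.

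Cell type markers were 9 lists. Pooled over FFPE and over frozen SCRB-seq wells, levels were 904 and 405 CPM (GABAergic), 1202 and 477 (astrocyte) and 1950.2 and 359 (oligodendrocyte). They were 175.7 and 69.45 (precursor), 327 and 165 (microglia) and 266 and 189.6 (endothelial).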

Additional observations from a re-analysis of the deposited data

Results flagged for a closer look

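In 18 of 80 sets of 8 SCRB-seq wells (10 members in 8 pools), 1 well lay far above the other 7. Chance flags about 1 in 20 sets of normally spread values. Wells with few counts are not spread that way, and the rate for them was not tested. For Dlg1 that well had 1437.75 CPM (15 counts) among mineral oil wells of 10 nuclei, 901 CPM among mineral oil wells of 100, and 109.5 CPM among RT xylene wells of 10. For Dlg4 it had 168 CPM in heated xylene wells of 10 nuclei, 269.5 CPM in those of 100, 287.5 CPM (3 counts) in mineral oil wells of 10 and 290.3 CPM in those of 100. Homer1 reached 429.6 CPM in a heated xylene well of 10 nuclei and 1117 CPM (23 counts) in a mineral oil well of 10.

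Dlgap2 reached 469 CPM in a heated xylene well and 647 CPM in an RT xylene well, both of 10 nuclei, and Dlgap3 229 CPM (3 counts) in a mineral oil well of 10. Shank1 had 48.6 CPM (1 count) in a single mineral oil well of 10 nuclei, with the other 7 at 0, and 888 CPM in a mineral oil well of 100. Shank2 reached 1227 CPM (108 counts) in an RT xylene well of 10. Shank3 reached 511 CPM in a frozen well of 10 nuclei, 243 CPM in a heated xylene well of 10 and 254 CPM in an RT xylene well of 100.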

How the results depend on the processing

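Members called between mineral oil and heated xylene in SCRB-seq (2) fell to 1 with DESeq2 size factors, 1 with factors from genes counted in every well, 1 in wells of 100 nuclei, 0 in wells of 10 and 0 after thinning to 20000 counts, where 8 wells were left out. Of 5 members tested, 2 were still tested in the last 2 settings and 8 in wells of 100. Against RT xylene (2 called) the numbers were 1, 0 and 0 in the last 3 settings, with as many tested. Of 7 members called between FFPE and frozen wells, thinning gave 3, the number still tested. Leaving out 1 SMART-Seq2 well gave 2 to 3 called between FFPE and frozen and 0 between methods. Without the heated xylene well of 50 nuclei Dlgap1 was -0.0221, and the range over left-out wells reached 0.1951.

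Calls over all genes, FFPE against frozen, were 857 of 1478 genes tested in SCRB-seq (447 higher, 410 lower), against 4785 of 19006 without a filter (1488, 3297) and 4261 of 13183 with a looser one (1382, 2879), and 372 in SMART-Seq2 against 631 with DESeq2. On plates, batch 1 turned the log2 ratio of Dlgap1 (0.44), Dlg1 (1.4986), Dlg2 (0.0215), Dlg4 (-0.83) and Homer1 (0.17). Mean CPM turned Dlg1 (0.0089) and Shank3 (0.52), thinning Dlg4 (-0.16) and Shank3 (0.49), and leaving out the 9 nuclei in no batch table Shank3 (0.62) and gave 8 of 10 members lower in FFPE. The causes were not tested. Scaling by genes counted in every well, well totals and batch 1 were chosen after seeing the data. The labels give wells no replicate numbers, so none were paired. Matched on the number of nuclei, as a covariate, SMART-Seq2 called 3 members between FFPE and frozen, as without it, and 0 between methods.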
